A study of Mus musculus with 12 samples.

Results

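Matricellular and fibrillar glycoproteins of the extracellular matrix were examined in U2OS, a human osteosarcoma cell line, as 10 of the 58735 genes in the expression table. The 10 genes were the thrombospondins THBS1, THBS2 and THBS3, the tenascin TNC, the SPARC relatives SMOC1 and SMOC2, the fibulins FBLN1 and EFEMP1, and the fibrillins FBN1 and FBN2. Each was found by its full name in the gene description, which matched exactly 1 row. Of the 10 genes, 9 had a mean FPKM (fragments per kilobase of a gene's length, corrected for the size of the library) of at least 0.5 over all libraries and entered the fits, and THBS2 did not. They were chosen by their function and selected on earlier results of these same libraries, in which some of them differed between the groups, so their own fold changes are given as a description without p-values.

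RNA was sequenced from 4 groups of 3 libraries each. Blank U2OS cells were compared with cells given the siRNA siSRSF1-2 or the siRNA siSRSF1-3, both aimed at the splicing factor SRSF1, and with cells in which a long non-coding RNA, LINC01134, was overexpressed (OE-LINC01134). The study asked how SRSF1 acts in osteosarcoma, and the labels state no purpose for the OE-LINC01134 cells. A control siRNA group and an empty vector group were not among the libraries analysed here, so a difference from the blank cells holds the delivery as well as the siRNA or transcript. The labels give neither dose nor time, and the study's methods give both for transient transfection but place it in HOS, another osteosarcoma line. The labels list 3 replicates a group, the supplementary methods speak of 2 biological replicates per condition, and neither says which libraries were separate cultures. Each SD, SE and p-value therefore measures only the spread between these libraries, which may be technical. In RNA from whole cultures, fewer cells with a transcript and less of it per cell cannot be told apart.

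Matricellular proteins are secreted into the matrix but mainly signal to cells rather than carry load. Thrombospondins, tenascins and SPARC relatives bind integrins, growth factors and other matrix proteins, and are abundant in developing, wounded and tumour tissue. Fibrillins assemble into microfibrils, the scaffold on which elastic fibres form and on which latent TGF-beta is stored, and fibulins bind to these fibres and to basement membranes. In bone, both groups take part in the matrix that osteoblasts lay down.

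Between 26237763 and 32954539 reads fell on genes per library. SRSF1 stood at 19.8 to 35.9 FPKM in the blank cells, at 7.09 to 7.46 with siSRSF1-2 and at 3.33 to 7.90 with siSRSF1-3, and LINC01134 stood at 878 to 1279 in the OE-LINC01134 cells and at most 1.11 elsewhere. Of 7 osteoblast lineage markers, 3 (SP7, BGLAP and COL1A2) were under 1 FPKM in all 12 libraries. The summed list lay at 34.9 to 50.6 FPKM in the blank cells and 24.9 to 36.1 with OE-LINC01134. It lay at 25.8 to 27.0 with siSRSF1-2 and 29.8 to 34.0 with siSRSF1-3. The largest part of this sum was COL1A1, at 23.4 to 39.7 FPKM in the blank cells. COL1A1 stood at 14.1 to 15.0 with siSRSF1-2, 15.2 to 17.9 with siSRSF1-3 and 19.2 to 29.6 with OE-LINC01134. ALPL was higher with both siRNAs, at 7.53 to 7.87 with siSRSF1-2 and 7.27 to 12.9 with siSRSF1-3. It had 5.30 to 5.94 FPKM in the blank cells and 1.09 to 2.22 with OE-LINC01134. The sum of 3 epithelial markers was 1.60 to 2.27 FPKM in the blank cells, 1.62 to 1.84 with siSRSF1-2 and 2.125 to 2.307 with OE-LINC01134. With siSRSF1-3 it was 2.92 to 3.00, above the blank range, and 19.2% of all genes tested were likewise higher without overlap. EPCAM was the largest part of this sum, and KRT5 was lower with siSRSF1-3 (0.018 to 0.037 FPKM) than in the blank cells (0.050 to 0.337). The leukocyte and endothelial sums reached at most 0.136 and 0.663 FPKM in any library. The part of these markers in the results was not tested. In 5 pairs of libraries of the same group the read counts differed little beyond counting noise, with a chi-square of 2.20 to 3.48 per gene where counting noise alone gives 1, against 35.0 to 724 in the other 61 pairs. These pairs were blank replicates 2 and 3, OE-LINC01134 replicates 1 and 3, and the 3 siSRSF1-2 libraries. They were kept as separate libraries because they still differed by more than counting noise. Such a difference does not show that they were separate cultures, and the SE and p-values with siSRSF1-2 rest on counting them as 3. Blank replicate 1 and OE-LINC01134 replicate 2 stood apart from their own groups. Over all genes siSRSF1-3 replicates 1 and 2 correlated with each other at 0.944 and with libraries of other groups at 0.792 to 0.903, whereas siSRSF1-3 replicate 3 correlated with the siSRSF1-2 libraries at 0.958 to 0.960 and with its own group at 0.861 and 0.922. Values are therefore given per library.

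In the blank cells TNC had the highest level per length, at 49.3 ± 19.1 FPKM (SD, n = 3), above 95.3% of all genes tested. THBS1 followed at 18.2 ± 22.8 FPKM, FBLN1 at 17.9 ± 1.21, EFEMP1 at 8.22 ± 4.33, FBN2 at 6.82 ± 2.04 and SMOC1 at 5.53 ± 0.536 FPKM. THBS3 at 2.92 ± 0.509, FBN1 at 1.21 ± 0.135, SMOC2 at 0.653 ± 0.156 and THBS2 at 0.465 ± 0.198 FPKM had the lowest levels. The libraries of neighbours in this order overlapped between TNC and THBS1, THBS1 and FBLN1, EFEMP1 and FBN2, FBN2 and SMOC1, and SMOC2 and THBS2, so the order within these pairs lies inside the spread of the libraries.

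**Figure D1:**
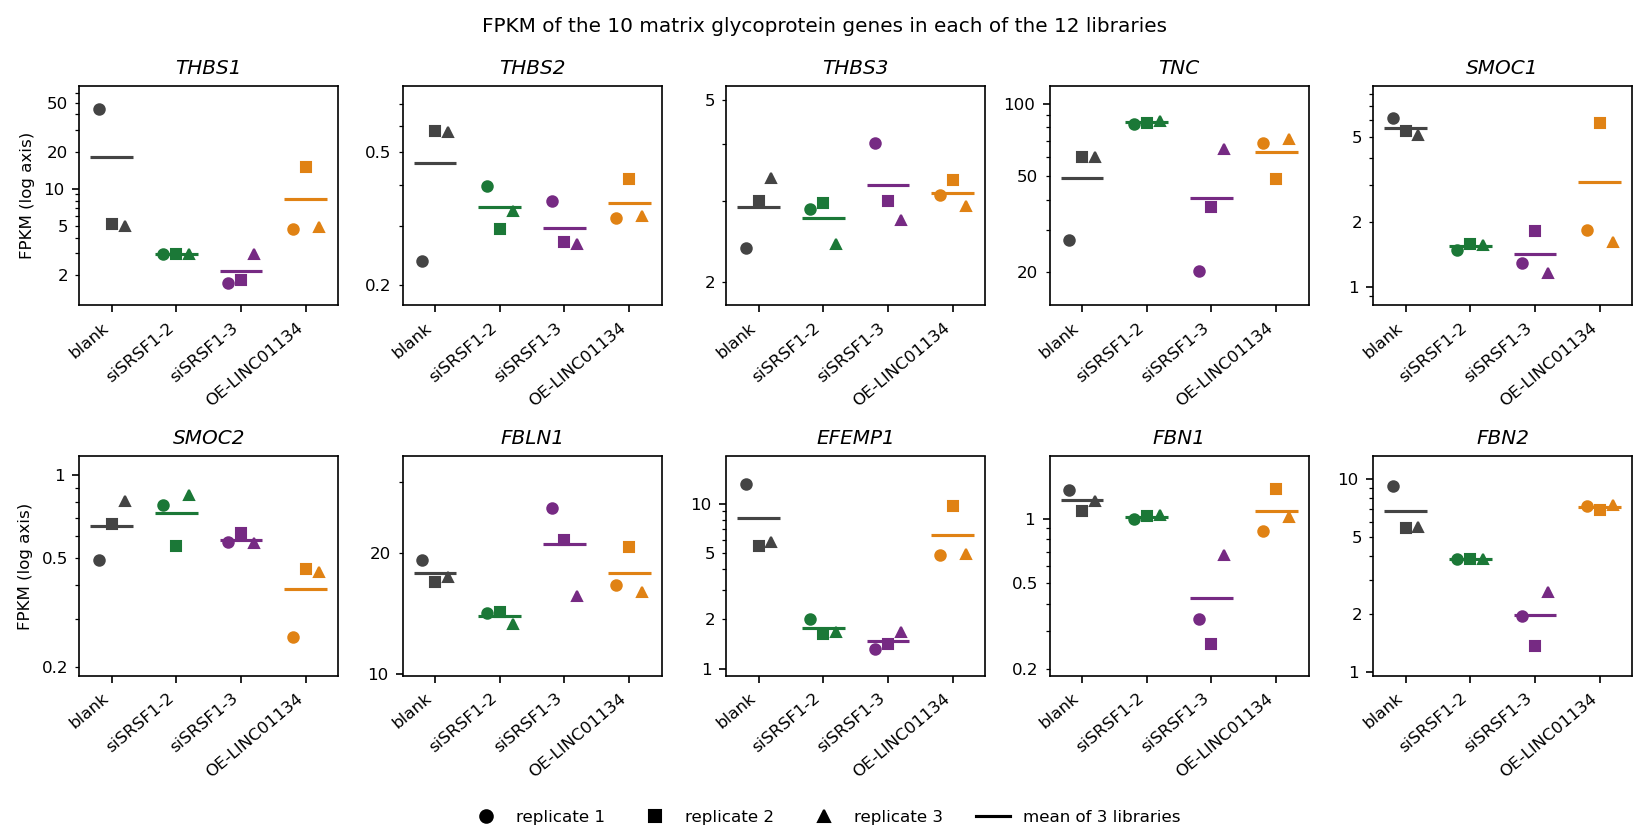
FPKM (log axis) of the 10 genes in the 12 libraries, by group on the x axis, with 1 symbol per replicate number and a line at the mean of 3 libraries. THBS1 reached 44.5 FPKM in blank replicate 1 and 15.0 in OE-LINC01134 replicate 2, and EFEMP1 and SMOC1 lay lower in all 6 siRNA libraries than in any blank library.

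Among the fibulins, EFEMP1 (fibulin-3, ENSG00000115380, chr2:55865967-55924139, minus strand), a secreted glycoprotein of elastic tissue, had the lowest fitted fold change of the 9 genes with both siRNAs. Its level was 13.2, 5.58 and 5.87 FPKM in the blank libraries, 1.99, 1.63 and 1.69 with siSRSF1-2, 1.33, 1.41 and 1.68 with siSRSF1-3, and 4.90, 9.67 and 4.94 with OE-LINC01134. All 6 siRNA libraries lay below all 3 blank libraries, the 2 siRNA groups overlapped each other, and the OE-LINC01134 libraries overlapped the blank ones. The log2 fold change on the log2(FPKM + 0.1) scale was -2.29 (SE 0.35) with siSRSF1-3 and -2.04 (SE 0.34) with siSRSF1-2. Without blank replicate 1 these values became -1.90 and -1.64, and with siSRSF1-2 that of SMOC1 was then lower, at -1.70. With OE-LINC01134 the EFEMP1 value was -0.29 (SE 0.41), and it took the opposite sign (0.11) when blank replicate 1 was left out. Read counts behind these values ran from 103 to 1450 per library.

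FBLN1 (ENSG00000077942, chr22:45502238-45601135, plus strand), a fibulin that binds fibronectin and lines basement membranes and elastic fibres, had 19.2, 17.0 and 17.4 FPKM in the blank libraries, 14.2, 14.3 and 13.3 with siSRSF1-2, 25.9, 21.5 and 15.6 with siSRSF1-3, and 16.6, 20.7 and 16.0 with OE-LINC01134. The siSRSF1-2 libraries lay below all others, and siSRSF1-3 ran from below the blank range to above it. Fitted fold changes on the log2 scale were -0.36 (SE 0.07) with siSRSF1-2, 0.20 (SE 0.22) with siSRSF1-3 and -0.01 with OE-LINC01134, and 0.56 (SE 0.20) for siSRSF1-3 against siSRSF1-2. Under alternatives in processing that kept every library, the siSRSF1-3 value fell as low as -0.24. The value for siSRSF1-3 against siSRSF1-2 fell as low as -0.01.

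SMOC1 (ENSG00000198732, chr14:69854131-70032366, plus strand) encodes a calcium-binding SPARC relative of basement membranes that modulates BMP signalling. It had 6.14, 5.33 and 5.13 FPKM in the blank libraries, 1.48, 1.57 and 1.57 with siSRSF1-2, 1.28, 1.83 and 1.15 with siSRSF1-3, and 1.83, 5.82 and 1.62 with OE-LINC01134. The 6 siRNA libraries and OE-LINC01134 replicates 1 and 3 sat together at the low level, and OE-LINC01134 replicate 2 lay inside the blank range. On the log2 scale the change was -1.91 (SE 0.23) with siSRSF1-3, -1.78 (SE 0.10) with siSRSF1-2 and -1.06 (SE 0.46) with OE-LINC01134. Without OE-LINC01134 replicate 2, the last value became -1.62 and passed the threshold used for all genes, as did 8.78% of all genes. The OE-LINC01134 libraries then left, replicates 1 and 3, differed little beyond counting noise.

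SMOC2 (ENSG00000112562, chr6:168441151-168673445, plus strand), its close relative, was near the lower limit of the fit, with 30 to 121 reads per library. It stood at 0.493, 0.663 and 0.804 FPKM in the blank libraries, at 0.777, 0.554 and 0.846 with siSRSF1-2, at 0.569, 0.615 and 0.565 with siSRSF1-3, and at 0.257, 0.454 and 0.442 with OE-LINC01134. The OE-LINC01134 libraries lay below all blank libraries, with a log2 fold change of -0.64 (SE 0.34), and both siRNA groups overlapped the blank cells.

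THBS1 (ENSG00000137801, chr15:39581079-39599466, plus strand), a glycoprotein that activates latent TGF-beta and signals through CD47 and integrins, had the widest spread of the 10 genes. It reached 44.5 FPKM in blank replicate 1 against 5.18 and 5.02 in the other two blank libraries. With siSRSF1-2 it stood at 2.94, 2.95 and 2.95 FPKM, with siSRSF1-3 at 1.73, 1.81 and 2.96, and with OE-LINC01134 at 4.73, 15.0 and 4.84. All 6 siRNA libraries were below every blank library, while the OE-LINC01134 libraries overlapped the blank ones. The log2 fold change was -2.27 (SE 0.82) with siSRSF1-3, -1.81 (SE 0.84) with siSRSF1-2 and -0.58 (SE 0.90) with OE-LINC01134. Blank replicate 1 decided much of their size, since without it they became -1.24, -0.77 and 0.45.

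THBS3 (ENSG00000169231, chr1:155195588-155209051, minus strand), a thrombospondin of cartilage and bone matrix, had 2.37, 3.01 and 3.37 FPKM in the blank libraries, 2.88, 2.97 and 2.42 with siSRSF1-2, 4.02, 3.00 and 2.73 with siSRSF1-3, and 3.10, 3.34 and 2.93 with OE-LINC01134. Every group overlapped the blank cells, and the log2 fold changes lay between -0.07 and 0.15. THBS2 (ENSG00000186340, chr6:169215780-169254044, minus strand), a relative of THBS1 that restrains angiogenesis, rested on 42 to 121 reads per library and was not fitted. Its FPKM was 0.237, 0.582 and 0.577 in the blank libraries, 0.396, 0.296 and 0.334 with siSRSF1-2, 0.358, 0.270 and 0.265 with siSRSF1-3, and 0.318, 0.417 and 0.322 with OE-LINC01134. Blank replicate 1 was the lowest library of all for THBS2 and the highest for THBS1, and for THBS2 the groups overlapped.

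TNC (ENSG00000041982, chr9:115019578-115118257, minus strand) encodes tenascin-C, an anti-adhesive matrix glycoprotein of remodelling tissue and tumour stroma. It stood at 27.3, 60.2 and 60.4 FPKM in the blank libraries, at 82.7, 83.8 and 85.2 with siSRSF1-2, at 20.3, 37.3 and 64.9 with siSRSF1-3, and at 69.2, 48.8 and 71.7 with OE-LINC01134. The siSRSF1-2 libraries were above all 9 others, and the 3 siSRSF1-3 libraries ran from the lowest value of the 12 to above the blank range. Its log2 fold change was 0.86 (SE 0.31) with siSRSF1-2, -0.34 (SE 0.49) with siSRSF1-3 and 0.43 (SE 0.33) with OE-LINC01134. The siSRSF1-3 value changed sign, to 0.09, without siSRSF1-3 replicate 1. Set directly against siSRSF1-2, siSRSF1-3 was at -1.19 (SE 0.41), with no overlap between the libraries.

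FBN1 (ENSG00000166147, chr15:48408306-48645849, minus strand), the microfibril protein mutated in Marfan syndrome, had 1.35, 1.08 and 1.20 FPKM in the blank libraries, 0.991, 1.03 and 1.04 with siSRSF1-2, 0.340, 0.262 and 0.677 with siSRSF1-3, and 0.875, 1.37 and 1.01 with OE-LINC01134. The siSRSF1-3 libraries were below all others, and siSRSF1-2 lay just below the blank range. The log2 fold change was -1.39 (SE 0.39) with siSRSF1-3, -0.22 (SE 0.14) with siSRSF1-2, -0.16 (SE 0.23) with OE-LINC01134 and -1.17 (SE 0.34) between the 2 siRNAs. FBN2 (ENSG00000138829, chr5:128257909-128659185, minus strand), the fibrillin most used in developing tissue, stood at 9.17, 5.59 and 5.69 FPKM in the blank libraries and at 7.27, 6.97 and 7.36 with OE-LINC01134. Its level was 3.84, 3.85 and 3.87 FPKM with siSRSF1-2 and 1.96, 1.37 and 2.61 with siSRSF1-3, so that neither siRNA group overlapped the blank libraries or the other siRNA group. For FBN2 the log2 fold change was -1.74 (SE 0.30) with siSRSF1-3, -0.77 (SE 0.20) with siSRSF1-2, 0.12 (SE 0.20) with OE-LINC01134 and -0.97 (SE 0.24) between the 2 siRNAs. Reads of relatives such as FBN1 and FBN2 could be shared where their sequences match, which the table does not show.

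**Figure D2:**
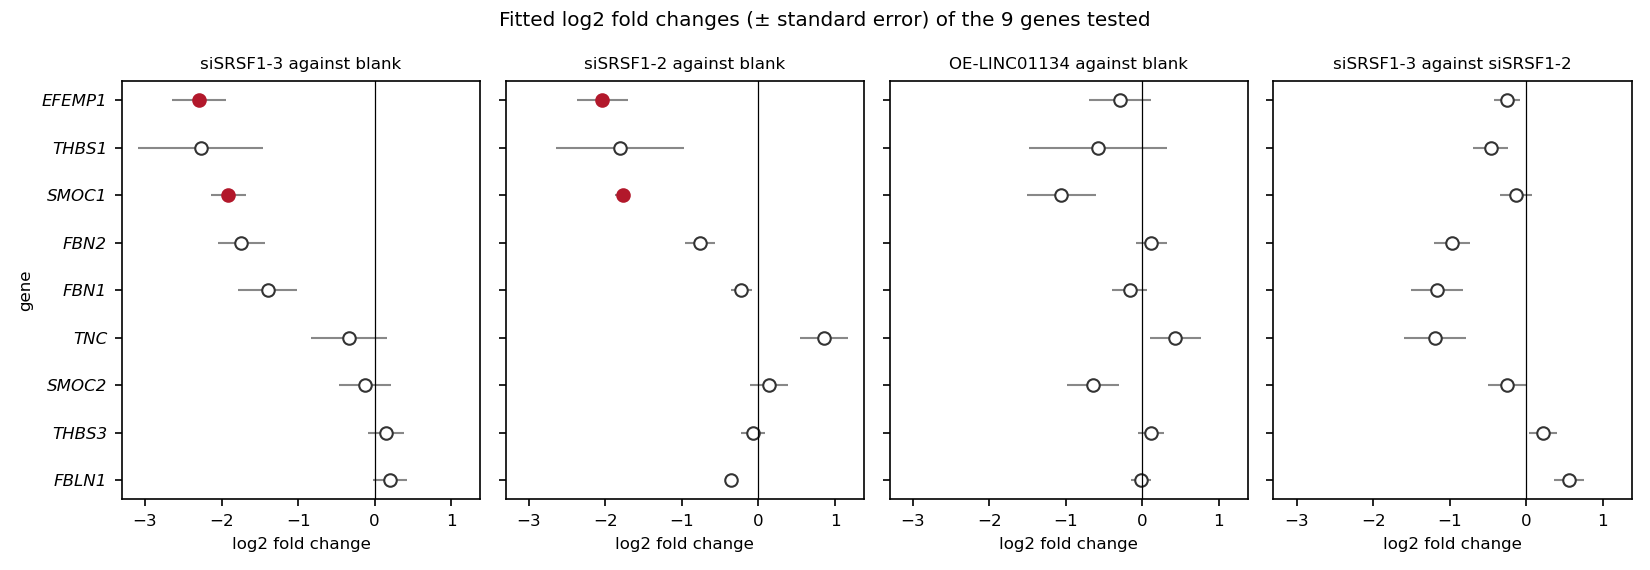
Log2 fold change with its standard error (bars) of the 9 genes tested, in 4 comparisons of 3 against 3 libraries. Filled red points passed the threshold (adjusted p under 0.05 and absolute log2 fold change over 1) and open points did not: SMOC1 and EFEMP1 were filled with siSRSF1-3 and with siSRSF1-2, and no gene was filled in the other comparisons.

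Taken as counts, limma with Benjamini-Hochberg adjustment over 17538 genes placed 2 of the 9 genes past the threshold (adjusted p under 0.05, absolute log2 fold change over 1) with siSRSF1-3, SMOC1 and EFEMP1, both lower. Of all genes tested 1.26% passed it, 0.331% higher and 0.929% lower. With siSRSF1-2 SMOC1 and EFEMP1 were again lower past the threshold, and of all genes 4.95% passed it, 2.22% higher and 2.73% lower. In 5 of the 9 genes the siSRSF1-3 libraries were all below the blank libraries and in 0 above, against 18.0% and 19.2% of all genes. The siSRSF1-2 libraries were all below the blank libraries in 6 of the 9 and above in 1, against 24.2% and 25.3%. The median log2 fold change of the 9 genes was -1.39 with siSRSF1-3 and -0.36 with siSRSF1-2, and that of all genes was -0.01 and 0.02. Because these contrasts entered the choice of the genes, nothing is read from the shares, and both siRNA comparisons use the same blank libraries.

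The count with siSRSF1-3 was 0 without any 1 of the blank libraries or without siSRSF1-3 replicate 1 or 2, where at most 29 of all 17538 genes passed. It was 4 without siSRSF1-3 replicate 3, when FBN1 and FBN2 joined SMOC1 and EFEMP1 and 23.9% of all genes passed. The count with siSRSF1-2 was 2 whichever library was left out, where 3.04% to 6.77% of all genes passed. The 3 siSRSF1-2 libraries, and blank replicates 2 and 3, differed little beyond counting noise, so leaving out 1 of them changed the fit little. Without blank replicate 1 only such libraries were left on both sides. These counts therefore say little about the spread between separate cultures.

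With OE-LINC01134 limma placed 0 of the 9 genes past the threshold, where 0.850% of all genes were, 0.257% higher and 0.593% lower. Without adjustment, a p under 0.05 and the same fold also gave 0, and limma's voom on the reads recovered from the FPKM gave 0 as well. At the unadjusted cut 877 of all 17538 genes were lower and 430 higher, and 1.98% of all genes passed with voom. The OE-LINC01134 libraries were all below the blank ones in 1 gene, SMOC2, and above in 0, against 13.8% and 16.8% of all genes. The median log2 fold change was -0.16, beside 0.05 for all genes. OE-LINC01134 replicate 2 was nearer to the blank cells than replicates 1 and 3 for SMOC1, and nearer to blank replicate 1 for THBS1 and EFEMP1. Over all genes its correlation with blank replicate 1 was 0.952, against 0.941 and 0.940 with the libraries of its own group.

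Between the 2 siRNAs limma placed 0 of the 9 genes past the threshold, where 0.0855% of all genes were, 0.0342% higher and 0.0513% lower. Without adjustment, a p under 0.05 and the same fold gave 2 genes, both lower with siSRSF1-3. At that cut 1302 of all 17538 genes were lower and 1581 higher. Voom gave 0, where 0.627% of all genes passed. The libraries did not overlap in 3 genes that were lower with siSRSF1-3 (TNC, FBN1 and FBN2) and in 1 that was higher (FBLN1), against 27.6% and 27.0% of all genes. TNC, FBN1 and FBN2 have 8000 bases or more. Genes of that length had medians from the blank mean of -0.41, -0.34 and 0.02 with siSRSF1-3 and 0.15 to 0.17 with siSRSF1-2. Under alternatives that kept every library, the values reached -0.84 for TNC, -0.51 for FBN1, -0.50 for FBN2 and -0.01 for FBLN1. Without siSRSF1-3 replicate 3, TNC, FBN1 and FBN2 passed the threshold, as did 30.6% of all genes.

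Gene length moved with these differences. In siSRSF1-3 replicates 1 and 2 the 2693 genes of 8000 bases or more had a median of -0.41 and -0.34 relative to the blank mean on the log2 scale, and the 5346 genes under 2000 bases had 0.32 and 0.23. The shortest genes went the other way, with medians of -1.62 and -1.28 among 587 genes of about 96 bases. In siSRSF1-3 replicate 3 the long genes were at 0.02, and in the siSRSF1-2 libraries at 0.15 to 0.17. THBS1, TNC, FBN1 and FBN2 are of that length (9158, 9636, 16057 and 13196 bases), whereas EFEMP1 and SMOC1 have 3962 and 4369 bases. TNC followed the order of the siSRSF1-3 libraries, at -1.19, -0.31 and 0.49 from the blank mean in replicates 1, 2 and 3. With a length trend removed from the values of each library, the siSRSF1-3 value of FBN2 was -1.44, of FBN1 -1.07 and of TNC -0.08, whereas EFEMP1 stood at -2.30 and SMOC1 at -1.88. For THBS1, also a long gene, it lay between -2.79 and -1.93 in all alternatives that kept every library, this one included. The part of length in the values of the long genes was otherwise not tested.

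**Figure D3:**
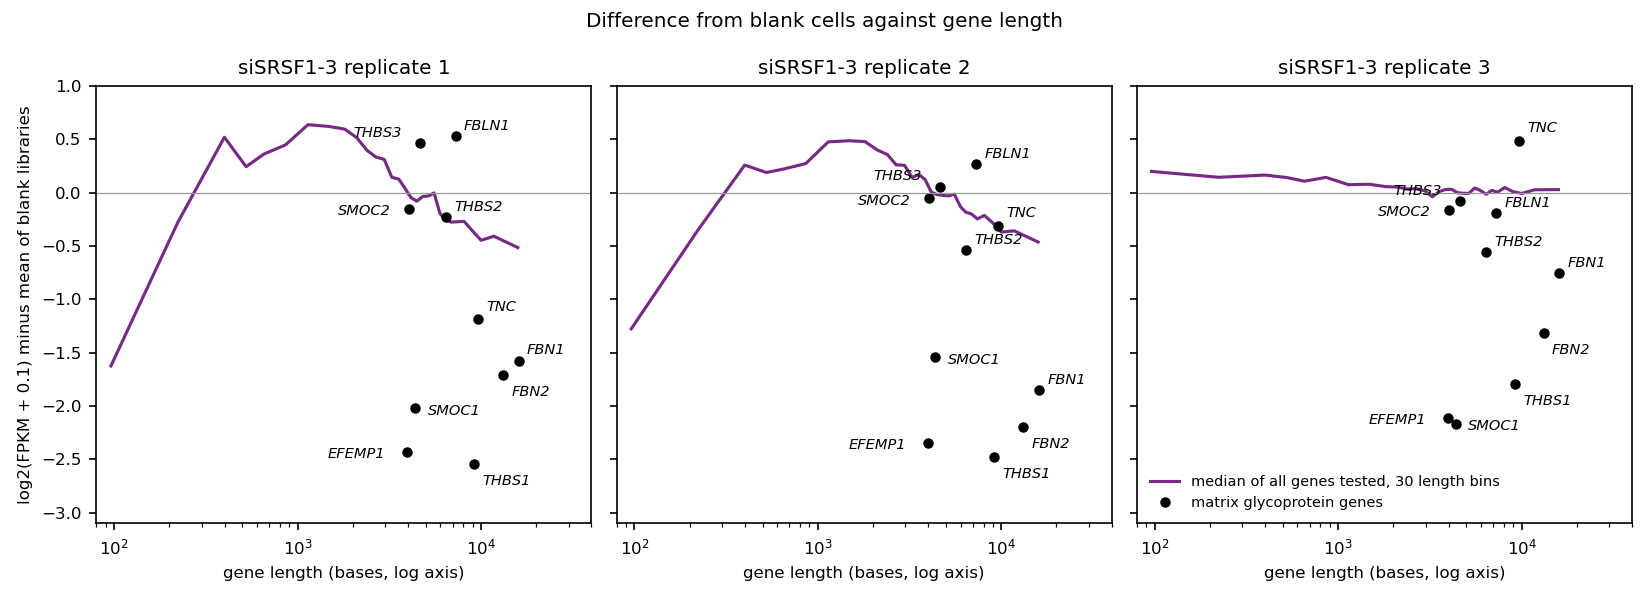
Difference from the mean of the blank libraries, on the log2(FPKM + 0.1) scale, against gene length in bases (log axis), in the 3 siSRSF1-3 libraries. The line is the median of all genes tested in bins of length and the points are the 10 genes: in replicates 1 and 2 the line rises from the shortest genes and falls again among the longer ones, in replicate 3 it is near level, and EFEMP1, SMOC1, THBS1, FBN1 and FBN2 lie well below it in each.

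Across the 12 libraries the 9 genes did not share 1 pattern. The 36 pairwise Pearson correlations of log2(FPKM + 0.1) had a median of -0.00 and ran from -0.915 (TNC with FBLN1) to 0.907 (THBS1 with EFEMP1). FBN1 and FBN2 correlated at 0.883, FBN2 and EFEMP1 at 0.873, and SMOC1 and EFEMP1 at 0.855. These points share libraries of the same group and the length dependence above, so the values describe the 12 libraries only. For the 4 genes with the widest range of group means, the 3 likest of all genes tested were listed. THBS1 was likest discoidin, CUB and LCCL domain containing 1 (r = 0.992), CCN2 (0.978) and actinin alpha 4 (0.975), and SMOC1 was likest thioredoxin related transmembrane protein 4 (0.978), the WNT inhibitor dickkopf 3 (0.974) and growth differentiation factor 11 (0.973). FBN2 was likest paternally expressed 3 (0.993), cysteine rich transmembrane BMP regulator 1 (0.987) and AKT1 (0.977). EFEMP1 was likest IKBKB interacting protein (0.990), oxysterol binding protein like 10 (0.984) and cell division cycle associated 7 (0.979).

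The wider matrix programme was followed in 53 related genes in 4 lists, of which 33 were tested. These lists, too, were chosen with earlier results of these data known, so their counts and p-values are a description. The lists were 18 family relatives (8 tested), 10 other matricellular proteins (5 tested), 12 elastic fibre and microfibril partners (10 tested) and 13 receptors (10 tested). With siSRSF1-3, 2 of the 33 passed the threshold, both lower, against 0.929% of all genes tested. They were TGFBI, an adhesion protein induced by TGF-beta (log2 fold change -2.77, SE 0.31, limma adjusted p = 0.0356), and LTBP1, which tethers latent TGF-beta to fibrillin microfibrils (-1.71, SE 0.29, adjusted p = 0.0483). LTBP1 stood at 12.6, 9.14 and 9.26 FPKM in the blank libraries and at 2.34, 2.64 and 4.55 with siSRSF1-3. Among the elastic fibre partners the smallest limma adjusted p was that of fibronectin, FN1 (-2.01, SE 0.35, adjusted p = 0.0505), and among the receptors that of the integrin subunit ITGB3 (-1.95, SE 0.35, adjusted p = 0.0505). The sign was negative in 30 of the 33, beside 50.7% of all genes, and the median was -0.58, beside -0.01 for all genes. In the 4 lists in turn the median was -0.49, -1.15, -0.54 and -0.57. Without siSRSF1-3 replicate 3 the count was 10, where 23.9% of all genes passed, and it was 1 without blank replicate 1 and 0 without any other 1 library of the comparison, where at most 29 of all genes passed.

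With siSRSF1-2, 5 of the 33 related genes passed the threshold, all lower, against 2.73% of all genes. TGFBI fell by 2.91 on the log2 scale (SE 0.28, limma adjusted p = 0.00222), from 6.01, 12.2 and 12.02 FPKM in the blank libraries to 1.19, 1.18 and 1.18. The collagen and elastin cross-linking enzymes LOXL1 and LOXL2 were lower by limma, at -1.49 (SE 0.22, adjusted p = 0.00671) and -1.11 (SE 0.19, adjusted p = 0.00985). MFAP5, a microfibril glycoprotein, was at -1.08 (SE 0.23, limma adjusted p = 0.0186) and ITGB3 at -1.64 (SE 0.21, limma adjusted p = 0.00401). Among the family relatives LTBP1 had the smallest limma adjusted p, 0.00615, at a log2 fold change of -0.95 that did not reach the fold required. The sign was negative in 30 of the 33, beside 48.3% of all genes, and the median was -0.44, beside 0.02 for all genes. The blank libraries were the same as in the siSRSF1-3 comparison.

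With OE-LINC01134, MFAP5 was the only related gene past the threshold (-2.36, SE 0.33, limma adjusted p = 0.0402), against 0.850% of all genes. It stood at 2.62, 1.54 and 1.71 FPKM in the blank libraries and at 0.445, 0.227 and 0.235 with OE-LINC01134. The smallest limma adjusted p of the other lists were those of the family relative FBLN5 (-0.69, SE 0.18, adjusted p = 0.0880), osteopontin, SPP1, a bone matrix phosphoprotein (-1.49, SE 0.31, adjusted p = 0.0679), and the receptor CACNA2D1 (1.12, SE 0.27, adjusted p = 0.0793). The count was 10 without OE-LINC01134 replicate 2 and 6 without blank replicate 1, where 8.78% and 5.49% of all genes passed, and 0 without any other 1 library, where at most 9 of all genes passed. Between the siRNAs 0 of the 33 passed the threshold by limma, against 0.0855% of all genes, and 0 by voom, against 0.627%. Before adjustment, 3 of the 33 had a limma p under 0.05 and the same fold, all lower. Of all 17538 genes 1302 were lower at that cut and 1581 higher. The smallest limma adjusted p per list were those of LTBP2 (-0.79, SE 0.17, adjusted p = 0.0757), CCN2 (-0.64, SE 0.14, adjusted p = 0.0759), FN1 (-1.66, SE 0.33, adjusted p = 0.0731) and LRP1 (-1.30, SE 0.29, adjusted p = 0.0759). LTBP2, FN1 and LRP1 are long genes (9091, 17315 and 20839 bases) and CCN2 is not (2339). Under alternatives that kept every library, these values reached -0.46 for LTBP2, -0.63 for CCN2, -1.12 for FN1 and -0.72 for LRP1.

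**Figure D4:**
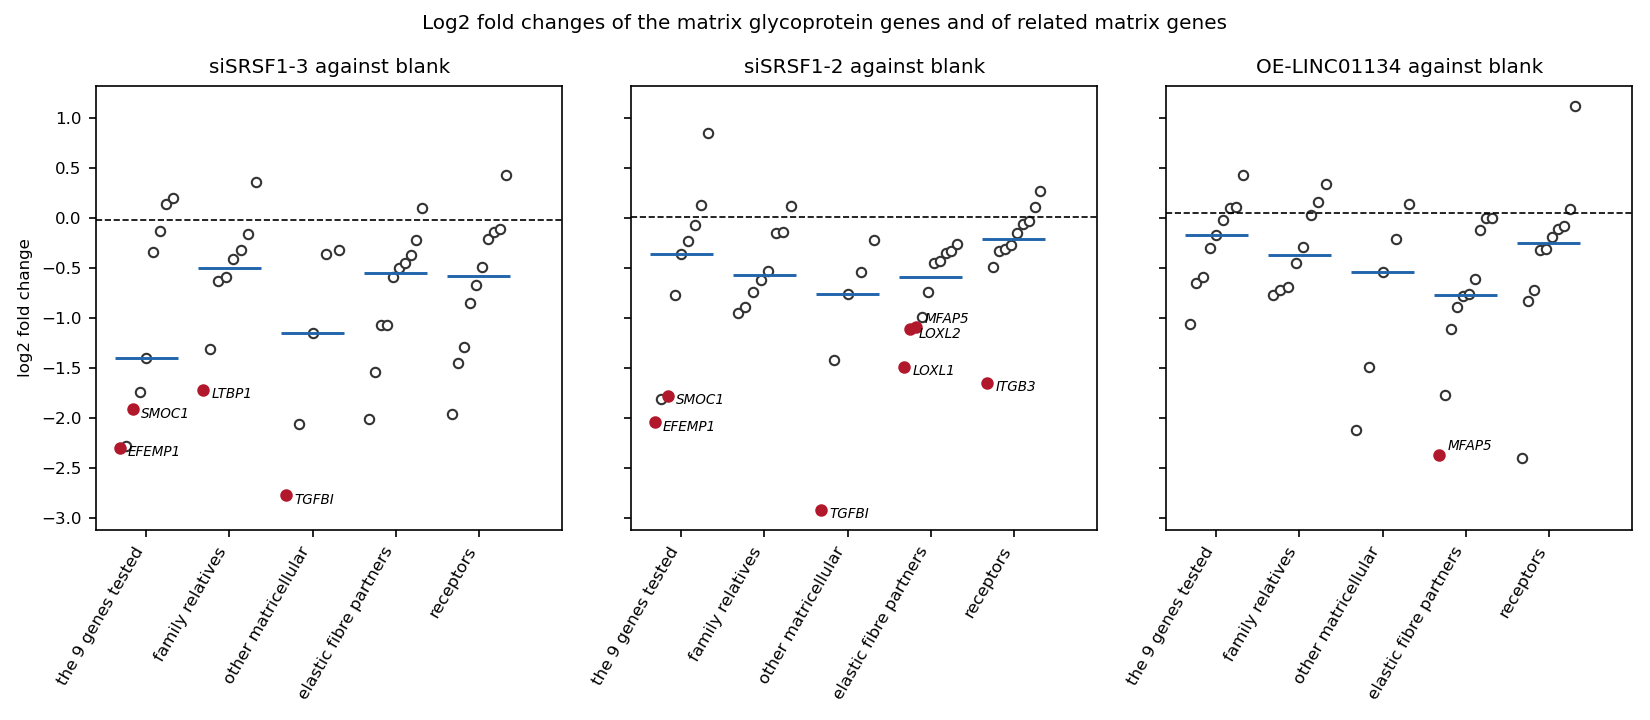
Log2 fold change of the 9 genes and of the 33 related genes tested, by list on the x axis, in 3 comparisons with the blank cells. Filled red points with names passed the threshold and open points did not, the blue bar is the median of a list and the dashed line the median of all genes; the list medians lie below the dashed line in all 3 panels.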

How the data were processed

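The authors deposited FPKM per gene and library, with gene lengths, coordinates and full names. Aligner, counting program and human genome build were not given in the sources used here. The labels name mouse as the organism and mouse builds, but the genes carry human Ensembl identifiers, so coordinates are printed as deposited, without a build, and no sequence is shown. The labels and the supplementary methods name different library kits. Deposited FPKM times length was a whole multiple of 1 read in 100% of values (within 0.01), so reads were recovered. Library sizes recovered from them were 0.712 and 0.888 times the reads on genes in siSRSF1-3 replicates 1 and 2 and 0.990 to 1.09 times in the other libraries. Columns named siASF were taken as siSRSF1, ASF being an older name of SRSF1.

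The authors compared counts with DESeq2. Because FPKM are not counts, log2(FPKM + 0.1) went into limma 3.58.1 under R 4.3.3 (lmFit and eBayes with trend), on the 3 + 3 libraries of each comparison and the 17538 genes whose FPKM averaged 0.5 or more. Fold changes of low genes are understated by the pseudocount. Benjamini-Hochberg adjustment ran over all genes tested, and the fit was tested on simulated data. Genes named were the 10 matrix glycoprotein genes, per related list those past the threshold or else the smallest adjusted p, and for the 4 of the 10 with the widest group means the 3 likest genes. The 10 genes and the lists were chosen with earlier results of these data known. All 81 symbols looked up were matched by full name, through an older name where the table has one. Alternatives were a pseudocount of 1, no filter, a mean FPKM of at least 1, other scalings, voom, 1 fit over the 4 groups, a replicate block and leaving out each library. Added after seeing the data were a length trend (loess, span 0.5) and averaged near-identical libraries.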

Additional observations from a re-analysis of the deposited data

Results flagged for a closer look

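In 4 related genes every siSRSF1-2 library lay on 1 side of the mean of the blank libraries and every siSRSF1-3 library on the other, on the log2(FPKM + 0.1) scale, which drew attention to them. The difference of the log2 fold changes, siSRSF1-3 minus siSRSF1-2, was 0.505 for the fibulin EFEMP2, -1.56 for the integrin subunit ITGB1, 0.742 for the syndecan SDC4 and -0.782 for the thrombospondin receptor CACNA2D1. On the FPKM scale siSRSF1-3 replicate 3 of EFEMP2 (7.05, blank mean 7.19) and siSRSF1-2 replicate 1 of CACNA2D1 (2.81, blank mean 2.84) lay on the other side. How many of all genes met this rule was not counted. For EFEMP2, SDC4 and CACNA2D1 every siSRSF1-2 library lay inside the blank range. Among alternatives that kept every library, the siSRSF1-3 value reached -0.078 for EFEMP2 and -0.015 for SDC4. The siSRSF1-2 value of CACNA2D1 reached -0.036, so the opposite sign was lost there. ITGB1 stood at 176, 150 and 154 FPKM in the blank libraries, at 186, 194 and 199 with siSRSF1-2 and at 35.7, 57.5 and 136 with siSRSF1-3. In the direct comparison of the 2 siRNAs the limma adjusted p was 0.0952 for EFEMP2, 0.085 for ITGB1, 0.0819 for SDC4 and 0.0776 for CACNA2D1, so no gene of the 4 passed the threshold.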

How the results depend on the processing

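SMOC1 and EFEMP1 stayed below the blank cells with both siRNAs under all alternatives run. The count of the 9 matrix glycoprotein genes past the threshold with siSRSF1-3 (2 as reported) was 3 with a pseudocount of 1, at a mean FPKM of at least 1 and with the length trend removed (FBN2 added), 1 with no filter, 1 with each library scaled to its own reads, 0 with FPKM rescaled to the same sum, 4 with voom, 5 with 1 fit over the 4 groups, 0 with averaged near-identical libraries and 0 to 4 with 1 library left out. With siSRSF1-2 it was 2 in the alternatives other than averaging (0), leaving out a library included (2 to 2). The share of all genes in these alternatives other than averaging ran from 1.79% in 1 fit to 6.77% without blank replicate 1. With OE-LINC01134 it was 0 to 1, and it was 1 without OE-LINC01134 replicate 2, where 8.78% of all genes passed. Between the siRNAs it was 2 in 1 fit over the 4 groups (15.6% of all genes). It was 0 to 3 there with 1 library left out, where 0% to 30.6% of all genes passed. The count of related genes with siSRSF1-3 (2) was 4 with a pseudocount of 1, 0 with no filter, 4 at a mean FPKM of at least 1, 1 on own reads, 0 at the same sum, 8 with voom, 11 in 1 fit, 6 with the length trend removed, 0 averaged and 0 to 10 with 1 library left out. With siSRSF1-2 (5) it was 3 with a pseudocount of 1 (2.16% of all genes) and 3 at the same sum (5.38%). It was 2 in 1 fit (1.79%), 0 averaged and 4 to 5 with 1 library left out (3.04% to 6.77%). With OE-LINC01134 (1) it was 0 with no filter (0.19% of all genes), 3 with voom (1.98%) and 6 in 1 fit (3.93%). It was 0 averaged and 0 to 10 with 1 library left out (0.0057% to 8.78%). Between the siRNAs (0) it was 3 in 1 fit (15.6% of all genes) and 0 to 5 with 1 library left out (0% to 30.6%). Of all genes with siSRSF1-3, 1.26% passed as reported, 1.78% with a pseudocount of 1 and 1.87% at a mean FPKM of at least 1. With no filter 0.272% passed, on own reads 0.393%, at the same sum 0.0057%, with voom 3.35%, in 1 fit 13.8% and with the length trend removed 1.98%. With 1 library left out the share was 0% to 23.9%. The cause of these changes was not tested, except that averaging leaves 1 siSRSF1-2 library and 2 each of the blank and OE-LINC01134 cells. At most 1 of all 17538 genes then passed in any comparison, so its counts of 0 say nothing about these genes. Scaling to own reads and to the same sum moved the median of all genes with siSRSF1-3 from -0.01 to -0.26 and -0.43, and the same sum moved it to 0.15 with siSRSF1-2.

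Replicate numbers did not pair the libraries: deviations of same-numbered libraries correlated at -0.0815 to 0.042, and 2 of 12 libraries correlated best with their own number. With a replicate block 0 of all genes passed with siSRSF1-3, 3.88% with siSRSF1-2 and 0.0228% with OE-LINC01134. The count of matrix glycoprotein genes was then 0 with siSRSF1-3 and 2 with siSRSF1-2. That of related genes was 0, 5 and 0 with siSRSF1-3, siSRSF1-2 and OE-LINC01134.

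Depth limits THBS2 and SMOC2, whose lowest libraries held 42 and 30 reads. Of the single fold changes of these genes under the alternatives, 29 moved by more than the spread between replicates and 539 did not.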

Other observations

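The following values were chosen after they were seen. CCN2, a matricellular protein induced by TGF-beta, was highest in blank replicate 1 and next in OE-LINC01134 replicate 2, as THBS1 was, with 382, 87.6 and 88.9 FPKM in the blank libraries, 90.0, 239 and 89.6 with OE-LINC01134, 53.2 to 54.4 with siSRSF1-2 and 29.5 to 38.6 with siSRSF1-3. SPARC, which binds collagen and calcium, was likewise highest in blank replicate 1 (111 FPKM, against 51.9 and 55.0) and next in OE-LINC01134 replicate 2 (66.3, against 43.3 and 43.7). FBLN2 and CCN4 showed the opposite in the blank libraries, at 0.030, 0.907 and 0.756 FPKM and at 0.174, 0.800 and 0.836, and were too low to be fitted.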
